A study of Mus musculus with 6 samples.

Results

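The 6 heavy chain constant genes Ighm, Ighg3, Ighg1, Ighg2b, Ighg2c and Ighe encode the constant parts of IgM, of the 4 IgG subclasses of C57BL/6 mice and of IgE. They were taken by gene symbol from a table of 37620 genes, where 7 rows carried these symbols. Ighe had 2 of the rows, and ENSMUSG00000076611 held 0 counts in all 6 libraries, which allows up to 3 counts per library, or 0.174 CPM at the lowest depth. The values for Ighe are therefore those of ENSMUSG00000087642. All 6 symbols passed the filter on low counts. The thinnest row was Ighg2c, with 2 to 6 counts per library in pMIR-Sox2.

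The libraries held total RNA of splenic B cells from C57Bl/6 mice aged 4 months. All cells were cultured with anti-CD40 (1 µg/ml) and IL-4 (12.5 µg/ml, as labelled), infected at 24 and 48 h with a retrovirus and sorted at 96 h for mCherry, the marker of infection. The groups received pMIR-Sox2, which carries the transcription factor gene Sox2 (3 libraries), or the vector pMIR without it (3 libraries). Nothing in the labels tells if replicates came from different animals, and p-values here speak of the spread between libraries alone. A library held between 17153805 and 20770447 gene counts in pMIR-Sox2 and between 21421769 and 27692437 in pMIR. Sox2 had 21528, 14536 and 10763 counts in the pMIR-Sox2 libraries, against 20, 7 and 37 in the pMIR libraries.

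A mature B cell first joins its variable region to the constant exons of Ighm, and class switch recombination then replaces them with those of a downstream gene on the same chromosome. Before a gene is used for switching, it is transcribed from its own promoter into a germline transcript that shares the constant exons but carries no variable region. CD40 and IL-4 signals favour the IgG1 and IgE genes, whereas Ighg3, Ighg2b and Ighg2c are better known from other stimuli. The counts here do not separate germline from switched transcripts, nor the secreted from the membrane form of a chain.

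In the GENCODE M21 annotation the genes lie on the minus strand of chromosome 12 in the order Ighm, Ighg3, Ighg1, Ighg2b, Ighg2c and Ighe, away from the variable segments. Ighd, which lies after Ighm, and Igha, which lies after Ighe, were not analysed here. No other gene of that annotation overlaps their exons. The first 60 coding bases of exon 1, which encodes the first constant domain, are shown because they carry both the likeness of the IgG genes and the differences by which a read is assigned. Capitals mark bases that differ from Ighg1 at the same position, of which there are 18 in Ighg3, 13 in Ighg2b and 14 in Ighg2c, and Ighm and Ighe were not marked.
Ighg1: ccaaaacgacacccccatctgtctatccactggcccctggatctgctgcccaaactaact
Ighg3: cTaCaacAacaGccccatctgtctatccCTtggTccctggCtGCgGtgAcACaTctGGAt
Ighg2b: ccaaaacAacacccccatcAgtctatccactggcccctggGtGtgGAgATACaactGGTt
Ighg2c: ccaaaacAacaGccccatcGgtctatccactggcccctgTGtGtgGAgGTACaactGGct
Ighm: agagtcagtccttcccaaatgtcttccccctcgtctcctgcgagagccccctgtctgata
Ighe: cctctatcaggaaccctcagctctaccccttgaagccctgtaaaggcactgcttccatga

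The hinge exon, which joins the first and second constant domains, is less alike than exon 1 in every pair of IgG genes. Its identity between Ighg1 and the other IgG genes was 41.7 to 43.9%, against 79.0 to 88.3% for the exon of the first domain.
Ighg1 hinge: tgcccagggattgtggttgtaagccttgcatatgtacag
Ighg3 hinge: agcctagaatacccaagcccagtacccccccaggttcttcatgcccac
Ighg2b hinge: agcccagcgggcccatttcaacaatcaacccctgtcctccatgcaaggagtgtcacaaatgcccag
Ighg2c hinge: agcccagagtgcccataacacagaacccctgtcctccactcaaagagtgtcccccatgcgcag

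Across their whole transcripts the genes were mostly distinct at the length of a short read. Of all windows of 50 bases, 5.49% in Ighg2c, 4.15% in Ighg2b, 1.58% in Ighg3 and 0.393% in Ighg1 also occurred in another gene, which was always another IgG gene of the 6. No window of 50 bases in Ighm or Ighe was shared, and none of 100 bases in any of the 6. Secreted coding sequences were 85.6% identical between Ighg2b and Ighg2c and 74.2 to 76.6% between all other IgG pairs. The read length was not given in the sources used here, so how many reads could fall to either of Ighg2b and Ighg2c, the closest pair, was not tested.

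All 6 genes fell in pMIR-Sox2. By estimated log2 fold change the IgG genes fell most, Ighe less and Ighm least. Ighm thus took a larger part of the heavy chain constant counts. The fall was called at adjusted p under 0.05 in 6 of 6 members by edgeR's quasi-likelihood test, in a table where 20% of the 12899 genes tested were called lower. No pMIR-Sox2 library reached the level of a pMIR library in any of the 6, and 27.6% of genes tested were lower in pMIR-Sox2 without overlap. CPM, counts brought to a common library size with TMM factors, are a relative measure, and in sorted bulk cells fewer cells of a type and less RNA per cell cannot be told apart. All genes tested had a median log2 fold change of -0.02. Scaled to Ighg1, the smaller fall of Ighe was called (edgeR adjusted p = 0.0241), but not with same-numbered replicates as a block (0.0831). Ighe fell less than Ighg1 between the libraries of each same-numbered pair.

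**Figure D1:**
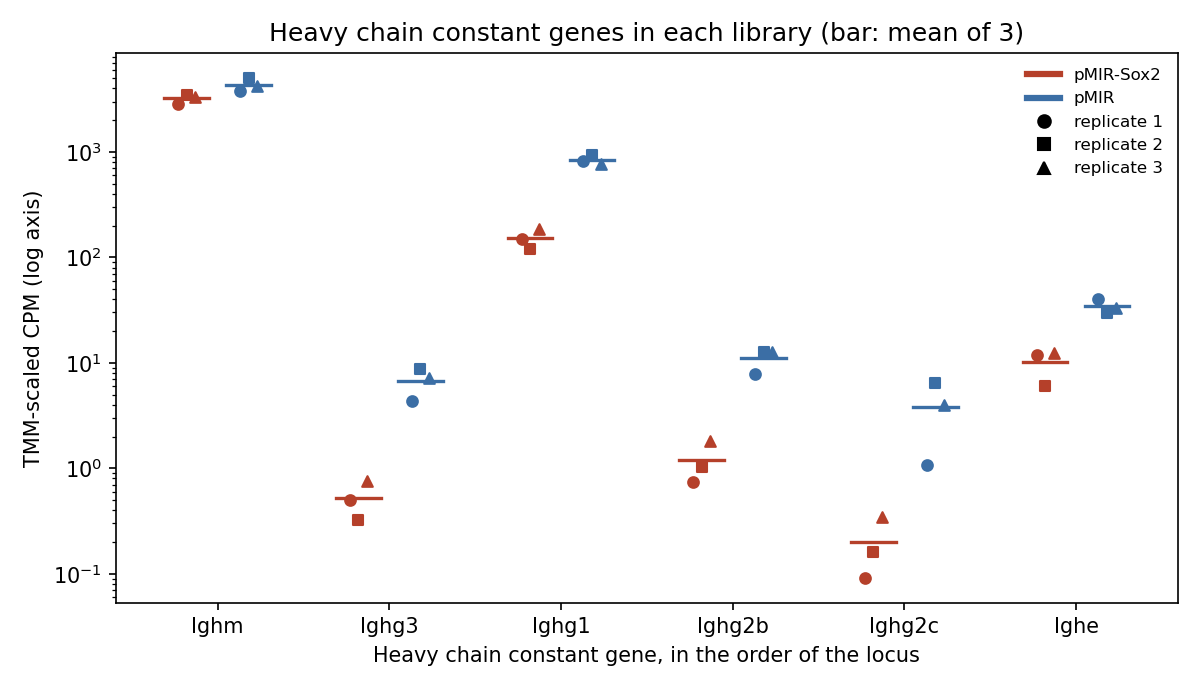
TMM-scaled CPM on a log axis for the 6 heavy chain constant genes in each library, with 3 pMIR-Sox2 libraries left of 3 pMIR libraries for each gene and a bar at the mean. Every pMIR-Sox2 point lies below every pMIR point of the same gene, and the gap is narrowest for Ighm, at 3501 against 3786 CPM for the nearest libraries.

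Ighm, the constant gene of unswitched IgM and the most abundant of the 6, had 2817, 3501 and 3316 CPM in pMIR-Sox2 replicates 1 to 3 and 3786, 5022 and 4184 CPM in pMIR replicates 1 to 3. The groups came close without overlapping, since the highest pMIR-Sox2 library was replicate 2 and the lowest pMIR library replicate 1. The mean was 3211 ± 353 CPM in pMIR-Sox2 and 4331 ± 631 CPM in pMIR (SD, n = 3 each), a log2 fold change of -0.43 ± 0.15 (SE, edgeR adjusted p = 0.0394). This is 1.35-fold lower and rank 2563 from the lowest among the genes tested. The call ended in 4 of the 6 fits that left out 1 library. Leaving out pMIR replicate 2 gave an edgeR adjusted p of 0.154, leaving out pMIR replicate 3 gave 0.0925, leaving out pMIR-Sox2 replicate 1 gave 0.0841, and leaving out pMIR-Sox2 replicate 3 gave 0.0542. Scaling to library totals without TMM gave 0.0596. The call held with same-numbered replicates as a block (edgeR adjusted p = 0.00222) and in the DESeq2 Wald test (adjusted p = 0.0134).

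Ighg1, the main IgG gene of CD40 and IL-4 cultures, had 149, 119 and 187 CPM in pMIR-Sox2 replicates 1 to 3 and 821, 942 and 762 CPM in pMIR replicates 1 to 3. Even the highest pMIR-Sox2 library lay 4.08-fold under the lowest pMIR library. Its mean was 152 ± 34.0 CPM in pMIR-Sox2 and 841 ± 91.7 CPM in pMIR (SD, n = 3 each), or 5.55-fold lower, with a log2 fold change of -2.47 ± 0.17 (SE, edgeR adjusted p = 2.36e-05). Ighg1 stood at rank 55 from the lowest among the genes tested.

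Ighe, the gene of IgE, is switched to under the same signals, often after IgG1. It had 11.9, 6.00 and 12.4 CPM in pMIR-Sox2 replicates 1 to 3 and 39.9, 29.7 and 33.2 CPM in pMIR replicates 1 to 3. Replicate 2 was the lowest library in each group, and the groups lay 2.39-fold apart at their nearest libraries. The mean was 10.1 ± 3.56 CPM in pMIR-Sox2 and 34.3 ± 5.19 CPM in pMIR (SD, n = 3 each), with a log2 fold change of -1.76 ± 0.25 (SE, edgeR adjusted p = 0.000686), or 3.39-fold lower.

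Ighg3, Ighg2b and Ighg2c, the IgG genes that IL-4 does not favour, were rare in both groups. Ighg3 had 11, 6 and 13 counts in the pMIR-Sox2 libraries and 119, 184 and 150 in the pMIR libraries, or 0.528 ± 0.215 CPM in pMIR-Sox2 and 6.79 ± 2.22 CPM in pMIR (SD, n = 3 each). Ighg2b had 16, 19 and 31 counts in the pMIR-Sox2 libraries and 213, 265 and 265 in the pMIR libraries, or 1.19 ± 0.548 CPM in pMIR-Sox2 and 11.1 ± 2.78 CPM in pMIR. In CPM the groups lay 5.82-fold apart for Ighg3 and 4.37-fold apart for Ighg2b at the nearest libraries. Their log2 fold changes were -3.68 ± 0.37 for Ighg3 (SE, edgeR adjusted p = 0.000116) and -3.24 ± 0.33 for Ighg2b (edgeR adjusted p = 0.000122).

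Ighg2c, which C57BL/6 mice carry in place of the IgG2a gene of some other strains, had 2, 3 and 6 counts in the pMIR-Sox2 libraries and 29, 136 and 83 in the pMIR libraries. In CPM this was 0.0919, 0.162 and 0.348 in pMIR-Sox2 replicates 1 to 3 and 1.07, 6.48 and 3.99 in pMIR replicates 1 to 3. The pMIR libraries spanned 6.06-fold, the widest range of the 6 genes in that group, with replicate 1 lowest and replicate 2 highest. The log2 fold change was -4.26 ± 0.77 (SE, edgeR adjusted p = 0.00246), at rank 3 from the lowest among the genes tested, with Ighg3 at rank 10 and Ighg2b at rank 19. The value moved to -3.65 without pMIR replicate 2 and to -4.86 without pMIR-Sox2 replicate 3.

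Libraries that share a number in the labels (8, 9 or 12) were treated as pairs after their deviations from the group means were found to correlate. The edgeR tests of each gene above did not use these pairs. In each of the 6 genes the pMIR-Sox2 library was lower than its own pMIR partner. The fall was largest in the pair numbered 9 for all 6 genes, at a log2 ratio of -0.52 for Ighm, -2.99 for Ighg1 and -2.31 for Ighe. In the pair numbered 8 it was -0.43 for Ighm, -2.46 for Ighg1 and -1.75 for Ighe. In the pair numbered 12 it was -0.34 for Ighm, -2.03 for Ighg1 and -1.42 for Ighe, the smallest of the pairs for these genes. Ighg2c fell most in every pair, at -3.54, -5.32 and -3.52 in the pairs numbered 8, 9 and 12. Ighg3 followed in the pairs numbered 9 and 12, whereas Ighg2b (-3.42) lay beyond Ighg3 (-3.12) in the pair numbered 8.

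**Figure D2:**
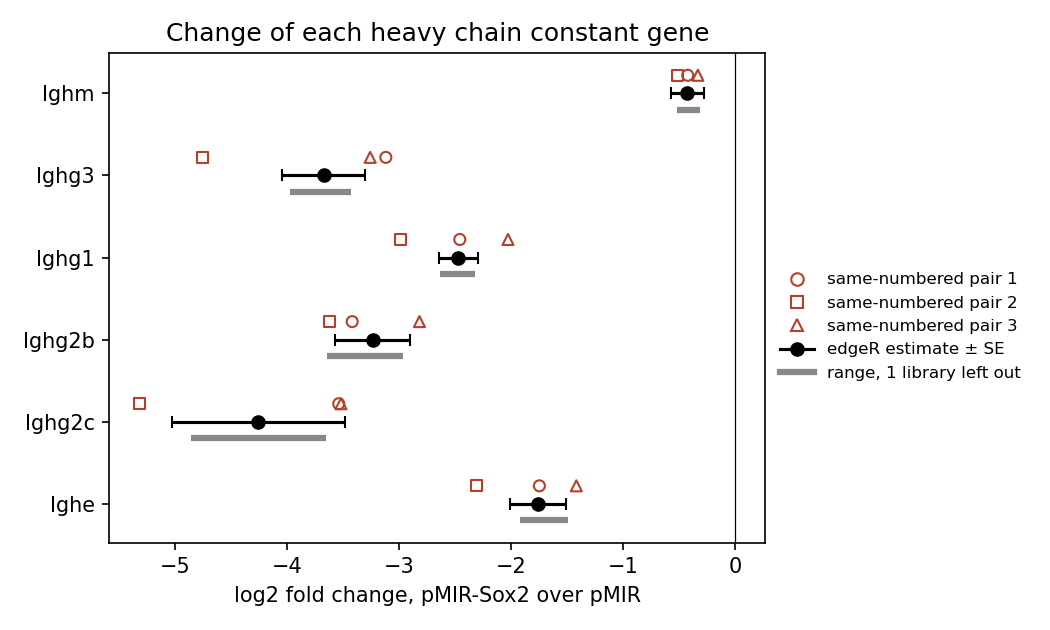
Log2 fold change of pMIR-Sox2 over pMIR for each heavy chain constant gene, as the edgeR estimate with its SE (black), the ratio within each same-numbered pair (open symbols) and the range when 1 library is left out (grey). Ighm lies nearest to 0 at -0.43, Ighe and Ighg1 follow at -1.76 and -2.47, and Ighg2b, Ighg3 and Ighg2c lie farthest out.

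Per kilobase of exon, the scale on which levels of different genes can be compared, the order in pMIR-Sox2 was Ighm (1703 ± 187 CPM per kb), Ighg1 (58.5 ± 13.1), Ighe (6.37 ± 2.25), Ighg2b (0.443 ± 0.205), Ighg3 (0.210 ± 0.0857) and Ighg2c (0.151 ± 0.0997). In pMIR it was Ighm (2296 ± 334 CPM per kb), Ighg1 (325 ± 35.4), Ighe (21.6 ± 3.27), Ighg2b (4.13 ± 1.04), Ighg2c (2.90 ± 2.04) and Ighg3 (2.70 ± 0.884), all SD with n = 3. The first 3 genes kept their order and were separated by more than their spread in both groups. Of the rare IgG genes, Ighg2b lay above Ighg3 in every library on this scale, at low counts in pMIR-Sox2. Ighg2c was within the SDs of a neighbour in each group, so its place in the order is not resolved. Exon lengths came from GENCODE M21 and include the long ends of the membrane forms where these are annotated, which lowers the values of Ighg1, Ighg2b and Ighg3 relative to the others if those ends carried few reads.

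The summed level of the 6 genes fell as well, to 3375 ± 347 CPM in pMIR-Sox2, against 5228 ± 708 CPM in pMIR (SD, n = 3 each). The sums were 2980, 3627 and 3518 CPM in the pMIR-Sox2 libraries and 4660, 6021 and 5003 CPM in the pMIR libraries, without overlap. A two-sided exact permutation test gave p = 0.1, the smallest p that 3 libraries against 3 allow. Of the fall of 1853 CPM in the sum, Ighm made up 60.4%, Ighg1 37.2% and Ighe 1.3%, since Ighm is so abundant that a small fold is many counts. As part of all gene counts, the 6 genes took 0.312, 0.371 and 0.354% in the pMIR-Sox2 libraries and 0.456, 0.583 and 0.486% in the pMIR libraries.

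Within the heavy chain constant counts of a library, which needs no scaling between libraries, the balance moved towards Ighm. Ighm made up 94.6, 96.5 and 94.3% in pMIR-Sox2 replicates 1 to 3 and 81.3, 83.4 and 83.6% in pMIR replicates 1 to 3. This is 95.1 ± 1.23% in pMIR-Sox2 and 82.8 ± 1.32% in pMIR (SD, n = 3 each), a difference of 12.4 percentage points. Wilson 95% intervals of single libraries reached at most 0.225 points to either side and cover counting error only, so the spread between libraries is the larger error.

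Ighg1 took up nearly all of that difference from the other side. Its share was 5.01, 3.28 and 5.31% in pMIR-Sox2 replicates 1 to 3 and 17.6, 15.6 and 15.2% in pMIR replicates 1 to 3, or 4.53 ± 1.1% in pMIR-Sox2 and 16.2 ± 1.27% in pMIR (SD, n = 3 each). The share of Ighe was 0.399, 0.166 and 0.353% in the pMIR-Sox2 libraries and 0.856, 0.493 and 0.663% in the pMIR libraries, again without overlap. The shares of the rare genes averaged 0.0158% in pMIR-Sox2 and 0.128% in pMIR for Ighg3, 0.0347% in pMIR-Sox2 and 0.211% in pMIR for Ighg2b, and 0.00581% in pMIR-Sox2 and 0.0701% in pMIR for Ighg2c.

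Each of the 6 shares differed without overlap of libraries, Ighm upwards and the other 5 downwards. The two-sided exact permutation test gave p = 0.1 for each, the smallest possible here, and 0.1 after Benjamini-Hochberg adjustment over the 6. That test did not use the replicate pairs. With the pairs as a block, the permutation p was 0.25 for each share, the smallest that so few pairs allow. Each share moved the same way in every pair. Relative to the summed counts, 63.4% of all genes tested were higher and 3.71% lower without overlap, so the upward move of Ighm sits with most genes while the downward moves do not. In edgeR with each library scaled to its summed counts of the 6 genes, the share of Ighm was not called (log2 difference 0.20 ± 0.14, SE, adjusted p = 0.208). It was called with replicate pairs as a block (adjusted p = 0.0432). The fit treats that sum as known without error, and Ighm is most of it, so neither result decides on its share. The other 5 were called lower there, from Ighe (-1.13 ± 0.29, adjusted p = 0.00334) to Ighg2c (-3.58 ± 0.62, adjusted p = 0.000189), where 58.6% of genes tested were called higher and 3.16% lower. Shares sum to 100% and are not independent of each other.

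**Figure D3:**
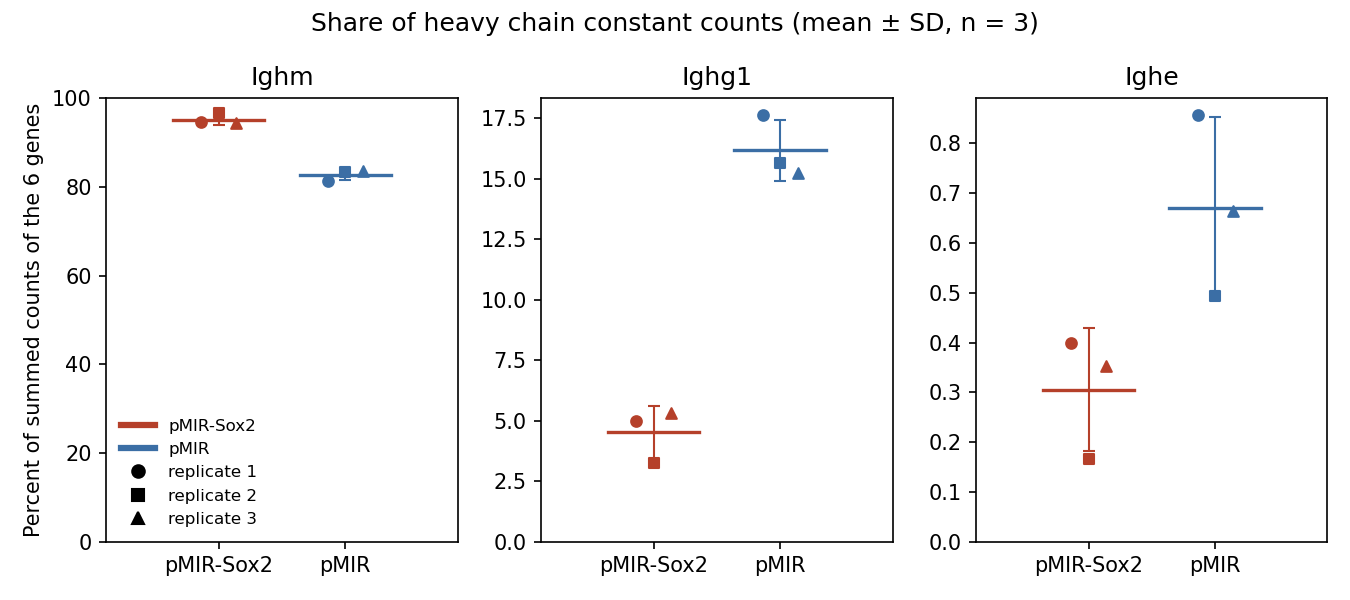
Percent of the summed counts of the 6 heavy chain constant genes taken by Ighm, Ighg1 and Ighe, with 3 pMIR-Sox2 libraries left of 3 pMIR libraries, the mean and the SD, on axes that start at 0 and differ between panels. Ighm is higher and Ighg1 and Ighe are lower in every pMIR-Sox2 library than in any pMIR library.

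The same shift was read as IgG and IgE counts per 100 counts of Ighm. The values were 5.76, 3.61 and 6.09 in pMIR-Sox2 replicates 1 to 3 and 23.1, 19.9 and 19.6 in pMIR replicates 1 to 3. The mean was 5.16 ± 1.35 in pMIR-Sox2 and 20.9 ± 1.94 in pMIR (SD, n = 3 each; two-sided exact permutation p = 0.1), so the pMIR-Sox2 value was 24.7% of that in pMIR. In tests of whether a gene's change differed from that of Ighm, edgeR was fitted to the whole table with each library scaled to its Ighm counts. All 5 IgG and IgE genes were lower than Ighm in this sense, by a log2 difference of -2.03 ± 0.21 for Ighg1 (SE, edgeR adjusted p = 1.96e-11) and -1.34 ± 0.29 for Ighe (edgeR adjusted p = 0.000964). The difference was -3.21 for Ighg3, -2.80 for Ighg2b and -3.77 for Ighg2c. On this scale 4.54% of all genes tested were called lower. The error of the Ighm count is shared by every gene in such a fit, so its p-values are too small. The exact permutation p of each log2 ratio was 0.1, and 0.129 after adjustment over the 9 ratios tested.

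Among the IgG and IgE counts alone, the make-up shifted less. Ighg1 made up 91.9, 94.1 and 92.4% of them in pMIR-Sox2 replicates 1 to 3 and 93.9, 94.2 and 93.0% in pMIR replicates 1 to 3, and these libraries overlapped (exact permutation p = 0.3). Ighe, whose share of all 6 genes fell, took a larger part of this smaller pool, with 7.33, 4.75 and 6.14% in pMIR-Sox2 replicates 1 to 3 and 4.57, 2.97 and 4.05% in pMIR replicates 1 to 3. The gap between the nearest libraries was small, and the exact permutation p was 0.1.

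Per 100 counts of Ighg1 there were 7.98, 5.05 and 6.64 counts of Ighe in the pMIR-Sox2 libraries and 4.86, 3.15 and 4.36 in the pMIR libraries. In edgeR scaled to Ighg1, Ighe was higher by 0.67 ± 0.30 (log2, SE, adjusted p = 0.0241), a scale on which 98.5% of all genes tested were called higher because Ighg1 fell more than most. That call ended with replicate pairs as a block (adjusted p = 0.0831) and without pMIR replicate 2 (0.139), pMIR replicate 3 (0.0548) or pMIR-Sox2 replicate 1 (0.177). Replicate 2 had the lowest ratio in both groups, and within each same-numbered pair the ratio was higher in pMIR-Sox2. The error of the Ighg1 count is shared by every gene in this fit, with or without the block.

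Ighg3, Ighg2b and Ighg2c together made up 0.82, 1.2 and 1.43% of IgG and IgE counts in pMIR-Sox2 replicates 1 to 3 and 1.52, 2.79 and 2.92% in pMIR replicates 1 to 3. The groups nearly met, at pMIR-Sox2 replicate 3 and pMIR replicate 1. Scaled to Ighg1, Ighg3 was lower by a log2 difference of -1.22 ± 0.45 (SE, edgeR adjusted p = 0.0067) and Ighg2c by -1.80 ± 0.55 (edgeR adjusted p = 0.00104), where 0.101% of genes tested were called lower. Ighg2b at -0.78 ± 0.40 did not pass (edgeR adjusted p = 0.0502). It passed when pMIR replicate 1 (0.047), pMIR-Sox2 replicate 2 (0.0242) or pMIR-Sox2 replicate 3 (0.0137) was left out. By exact permutation p was 0.1 for Ighg3, the smallest possible, with no overlap of libraries. It was 0.2 for Ighg2b and 0.3 for Ighg2c, whose libraries overlapped.

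**Figure D4:**
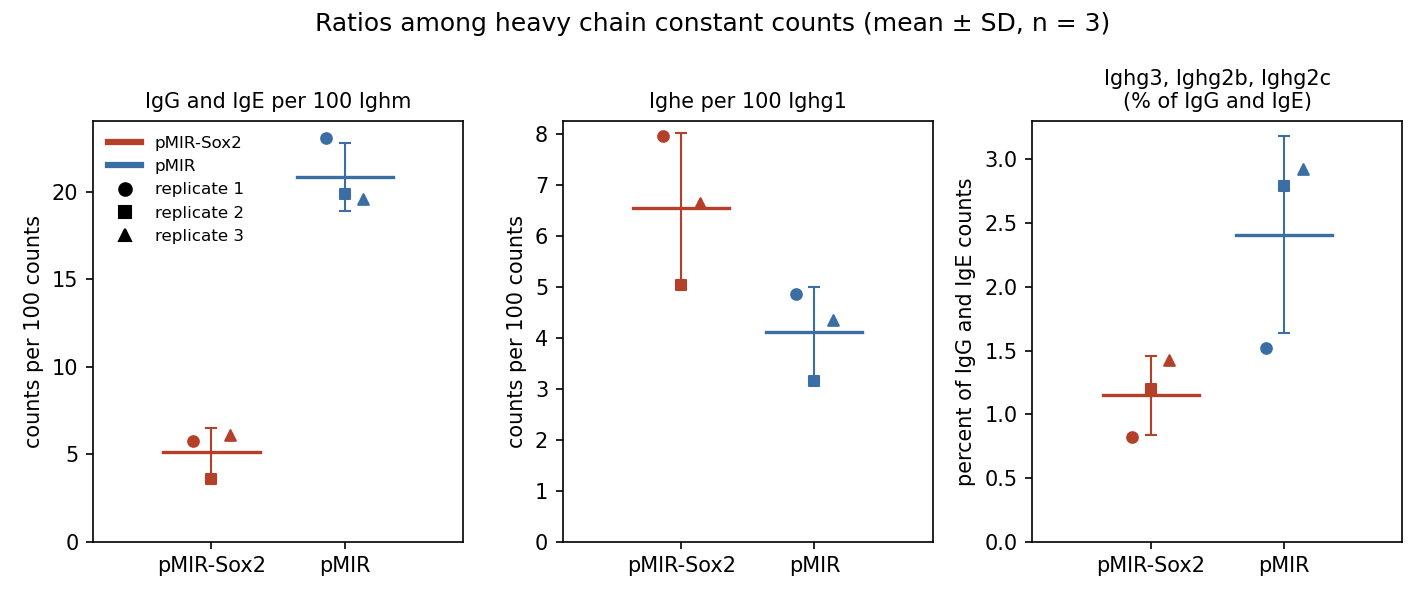
Ratios within a library, with 3 pMIR-Sox2 libraries left of 3 pMIR libraries, the mean and the SD: IgG and IgE counts per 100 Ighm counts, Ighe counts per 100 Ighg1 counts, and the percent of IgG and IgE counts that fall to Ighg3, Ighg2b and Ighg2c. The first ratio lies between 3.61 and 6.09 in pMIR-Sox2 and between 19.6 and 23.1 in pMIR, while the means of the other ratios differ by less than the wider of the ranges within a group.

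The genes with the most similar pattern were found by the mean absolute distance of log2 CPM over the 6 libraries, each gene centred on its own mean, among 11130 tested genes that are neither immunoglobulin nor predicted genes. Nearest to Ighm were Acap1 (0.0395), Slc25a28 (0.0425) and Ogfod2 (0.0436). Nearest to Ighg1 were Pmepa1 (0.0858), Hivep3 (0.124) and Il6ra (0.127), the last of which had 1.51 to 2.32 CPM in pMIR-Sox2 and 8.83 to 11 CPM in pMIR. Nearest to Ighe were Noxa1 (0.0774), Tubb6 (0.123) and Tagap (0.125). All of them, like Ighe, were lowest in replicate 2 of each group, which choosing them by these same libraries favours. Noxa1 rests on 1 to 5 counts per library in pMIR-Sox2.

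Heavy chains are built with light chains, displayed with CD79A and CD79B and folded by chaperones of the endoplasmic reticulum. Of 16 such partners 14 had a row and 13 were tested, of which 8 fell, 1 rose and 4 did not pass, with a median log2 fold change of -0.57. Background calls were 20% lower and 23.2% higher. The kappa constant gene Igkc had 524 ± 87.2 CPM in pMIR-Sox2 and 1077 ± 130 CPM in pMIR (SD, n = 3 each; log2 fold change -1.04, edgeR adjusted p = 0.000679), a larger fold than that of Ighm and a smaller one than that of Ighg1. Cd79b fell (-1.19), whereas Cd79a had 764 ± 112 CPM in pMIR-Sox2 and 652 ± 105 CPM in pMIR (edgeR adjusted p = 0.255). Igj, the joining chain that links IgM into pentamers, had 1.19 ± 0.173 CPM in pMIR-Sox2 and 24.5 ± 21.1 CPM in pMIR, with pMIR replicate 2 highest at 48.6 CPM. Igll1, a part of the surrogate light chain of precursor B cells, was the gene that rose, to 3.37 ± 1.49 CPM in pMIR-Sox2, against 0.0566 CPM in pMIR. The number that rose was 2 with library totals only and 3 with replicate pairs as a block, and 2 without pMIR replicate 1, 2 or 3 or without pMIR-Sox2 replicate 1 or 3.

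Of 48 genes whose products act on heavy chain promoters, enhancers or switch transcripts, 46 were tested, of which 18 fell, 12 rose and 16 did not pass, with a median log2 fold change of -0.15. Of all genes tested 20% were called lower and 23.2% higher, so the number that rose is near the background. The number that rose was 7 without pMIR replicate 1. Among the signals that drive the Ighg1 and Ighe promoters, Stat6, the transcription factor activated by IL-4, had 153 ± 13 CPM in pMIR-Sox2 and 197 ± 2.23 CPM in pMIR (log2 fold change -0.36, edgeR adjusted p = 0.0154). Il4ra, its receptor chain, had 1079 ± 204 CPM in pMIR-Sox2 and 1199 ± 265 CPM in pMIR (edgeR adjusted p = 0.53). Cd40 fell (-1.44), and so did Batf (-1.09), an AP-1 factor needed for switch transcripts. Pou2f2 (-1.39) and Pou2af1 (-0.88), an octamer factor and a coactivator that act on immunoglobulin promoters, fell. Pou2f1, another octamer factor, rose (0.62, edgeR adjusted p = 0.0275). The E protein genes Tcf12 (2.89) and Tcf4 (1.29) rose, while the E protein gene Tcf3 was not called (0.04, edgeR adjusted p = 0.789).

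Of 20 genes for the choice between membrane and secreted forms and for secretion, 19 were tested, of which 6 fell, 2 rose and 11 did not pass, against 20% lower and 23.2% higher over all genes tested. Leaving out pMIR replicate 1 or pMIR replicate 3 left 3 that fell, library totals without TMM gave 4, and replicate pairs as a block gave 9. Ell2, an elongation factor that favours the secreted poly(A) site in plasma cells, fell (-0.95), and Prdm1, the plasma cell regulator, rose (1.19). Of 17 Fc receptor and related genes 11 were tested, of which 6 fell and 5 rose, both above those background shares. Fcer2a, the low-affinity IgE receptor CD23, had 697 ± 236 CPM in pMIR-Sox2 and 1507 ± 322 CPM in pMIR (log2 fold change -1.11, edgeR adjusted p = 0.00583). Fcgr2b, the inhibitory IgG receptor, had 98.8 ± 28.8 CPM in pMIR-Sox2 and 28 ± 4.1 CPM in pMIR (1.82, edgeR adjusted p = 0.000207).

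Markers of other cell types moved with the heavy chain genes in part, and their part in the result was not tested. All 8 B cell markers were tested, of which 5 fell and 1, Pax5, rose. The background for each marker count here is 20% of all genes tested called lower and 23.2% called higher. The 8 summed to 6240 to 8860 CPM in pMIR-Sox2 and 11900 to 14000 CPM in pMIR. Cd74 alone had 3490 to 5830 CPM in pMIR-Sox2 and 8060 to 9610 CPM in pMIR. Of 7 plasma cell markers 6 had a row and 5 were tested, of which 3 fell (Igj, Irf4 and, at adjusted p = 0.05, Xbp1) and 1 rose (Prdm1), with a sum of 494 to 575 CPM in pMIR-Sox2 and 902 to 1090 CPM in pMIR. Xbp1 and Irf4 together made up most of that sum. Sdc1, the surface marker of plasma cells, had 5.41 to 7.26 CPM in pMIR-Sox2 and 7.39 to 9.89 CPM in pMIR. It was not called (edgeR adjusted p = 0.18). Of 8 T cell markers 3 were tested and 0 called by edgeR, with Cd3e and Cd8a at 0 in every pMIR-Sox2 library and at most 0.0738 CPM in pMIR. The T cell markers summed to 47.3 to 63.9 CPM in pMIR-Sox2 and 62.2 to 66.6 CPM in pMIR. Most of this was Lck, at 42.2 to 57.3 CPM in pMIR-Sox2 and 56.7 to 60.8 CPM in pMIR. Of 6 dendritic cell markers 3 were tested and 2 (Flt3 and Zbtb46) fell, with a sum of 12 to 15.2 CPM in pMIR-Sox2 and 33.3 to 43.3 CPM in pMIR. Of 10 myeloid markers 5 were tested, of which 3 rose and 1 fell. The sum of all 10 was 38.3 to 43.3 CPM in pMIR-Sox2 and 36.6 to 39.0 CPM in pMIR. Lyz1, S100a8 and S100a9 were at 0 in all libraries. NK cell markers (6, with Ncr1 at 0 in all libraries) summed to 5.74 to 10.3 CPM in pMIR-Sox2 and 3.10 to 3.26 CPM in pMIR. Of these 2 were tested and 1 was called, Klrd1, which rose to 3.07 to 7.95 CPM in pMIR-Sox2, against at most 0.0477 CPM in pMIR, while Prf1 had 1.61 to 2.32 CPM in pMIR-Sox2 and 2.10 to 2.88 CPM in pMIR (edgeR adjusted p = 0.245). Erythroid markers (7, with Hbb-b1, Hba-a1, Hba-a2 and Slc4a1 at 0 in all libraries) summed to 1.56 to 2.81 CPM in pMIR-Sox2 and 0.811 to 1.06 CPM in pMIR. Hbb-b2 was the only 1 of them tested, and it rose (log2 fold change 1.28, edgeR adjusted p = 0.00855).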

How the data were processed

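Total RNA of 6 libraries was measured as raw counts per Ensembl gene, deposited by the authors as whole numbers in 1 table. The submitters' processing notes name TopHat2 2.0.11, HTSeq 0.6.1p1, Bowtie2 2.2.2, Trimmomatic 0.32 and SAMtools 0.1.19 and the mm9 build, without saying what each did. Strand setting, annotation release and read length: not given in the sources used here. Lines of the table without a gene name (5) were kept from every total and test. Of these, the line for alignments that were not unique held 23.1 to 26.5% (pMIR-Sox2) and 25.7 to 26% (pMIR) of everything counted, and the line for ambiguous reads 0.284 to 0.289% (pMIR-Sox2) and 0.283 to 0.307% (pMIR).

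The test per gene was that of edgeR 4.0.16 (R 4.3.3; filterByExpr with the group, TMM, robust quasi-likelihood fit, Benjamini-Hochberg adjustment over the 12899 genes tested, threshold 0.05). SE is the log2 fold change over the square root of F. Differences between members used the same fit with libraries scaled to Ighm or Ighg1 counts. Shares and ratios used two-sided exact permutation tests over libraries, and the edgeR fit scaled to the summed counts was run beside them; the error of its scale is shared by all genes. The edgeR fit, with TMM and with libraries scaled to 1 gene, was checked on simulated data. These had the same dispersion for every gene fitted, no pairs, and changed genes only among those with higher counts than Ighg2c. For the scaled fit, the simulated reference had a lower dispersion than the genes. Only its median log2 fold change was held to a limit there, so its p-values were not checked. The permutation tests and the fit scaled to the summed counts were not checked in this way. GENCODE M21 (GRCm38), another build than mm9, gave transcript sequences, exon lengths and gene order, and no coordinates were used. Identity is that of global alignments. The members and gene lists were chosen with earlier results of these data known. Named beside the 6 members were some genes of the lists with small adjusted p and the 3 genes nearest in pattern to Ighm, Ighg1 and Ighe. Cd79a, Il4ra, Stat6, Cd40, Sdc1, Pou2af1, Pou2f1, Tcf3 and Fcer2a were named for their role. Other list genes with smaller adjusted p than Pou2af1 or Fcer2a were not described, among them Zbtb32 (log2 fold change -3.13), Ets1 (1.55), Fcrl5 (2.38) and Lgals3 (-2.90). Same-numbered libraries deviated together from their group means (r = 0.242, 0.359 and 0.189 for replicates 1 to 3, across genes), so the replicate number was taken as a pair. Only the ratios within pairs and the replicate block used it, and the main tests did not. Alternatives were other scalings, DESeq2 1.42.0, no filter, the replicate block and leaving out each library.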

Additional observations from a re-analysis of the deposited data

How the results depend on the processing

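The falls of Ighg3, Ighg1, Ighg2b, Ighg2c and Ighe kept their direction and their call under each alternative run: DESeq2 size factors, library totals only, library sizes without immunoglobulin genes, the DESeq2 Wald test, no filter, the replicate block and leaving out each library. The fall of Ighm kept its direction but not its call with library totals only (log2 fold change -0.36, edgeR adjusted p = 0.0596), and over fits leaving out 1 library it ran from -0.52 to -0.32 with adjusted p from 0.0448 to 0.154; the cause was not tested. With the replicate block it was -0.43 (edgeR adjusted p = 0.00222). Members called lower numbered 5 to 6 over the fits without 1 library. As a share of IgG and IgE counts only, Ighe turned to a difference of 2.21 points, by the construction of a pool in which Ighg1 fell more. The heavy chain partners that rose numbered 2 with library totals only, 3 with the DESeq2 Wald test, 3 with no filter, 3 with the replicate block and 1 to 2 without 1 library. Regulators that rose numbered 7 to 13 and processing factors that fell 3 to 7 without 1 library; library totals alone gave 4 processing factors that fell, and pairing by the block 9. Relative to Ighg1, Ighe was at 0.67 with the replicate block (edgeR adjusted p = 0.0831) and from 0.51 to 0.83 without 1 library, and Ighg2b from -0.999 to -0.53 without 1 library. In edgeR scaled to the summed counts, the share of Ighm was called with the replicate block (adjusted p = 0.0432) and not without it (0.208). As Ighm is most of that sum, neither result decides on its share. The block also moved the regulators that rose to 13 and those that fell to 19, and changed no other call of a member. Of 313 values under alternatives, 288 kept their direction and their side of the threshold or stayed within 1.5 times the count. This tally includes shares, sums and ratios tested by exact permutation, which cannot reach the threshold with so few libraries. For those only a change of direction could have been counted. Shares with Ighd, Igha or Ighg2a in the sum were not run. Low counts of Ighg2c, Ighg3 and Ighg2b in pMIR-Sox2 limit the precision of their folds.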
